A study of Rattus norvegicus with 17 samples.

Results

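Skeletal muscle and myogenesis genes of the fetal rat gubernaculum were followed across untreated and Insl3-treated cultures. The set holds 47 genes, chosen by name for their roles in muscle formation and muscle fibres, and measured by every probe set of the array that the platform table assigns to a single gene among them. Of the 47 genes, 42 had such a probe set, out of 14218 genes that had one in the whole series, and they shared 63 probe sets. A probe set was tested if its log2 signal exceeded 2.285 in at least 3 arrays, which 58 of the 63 did, and these covered 40 members out of 10665 genes tested in all. Pax3, Pax7, Msc and Myf5 were not in the platform table used here, and Actc1, the cardiac alpha-actin gene, was carried only by probe sets shared with another gene. Met and Mstn had a probe set that stayed at or below 2.285 in all 15 arrays used, so their low signal is only a bound. A gene with several tested probe sets was represented by that with the highest mean signal.

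The tissue was the gubernaculum, the fetal ligament that ties the testis to the abdominal wall, from male Long Evans rats on gestational day 17. Each replicate was a culture of 2 gubernaculum bulbs, kept for 24 h in medium with no added Insl3 and then for another 24 h either in the same medium or with the Leydig cell peptide insulin-like 3 (Insl3) at 10 nM or 100 nM. All groups shared the serum-containing medium and its insulin, transferrin and selenium supplement. The series holds 6 control arrays, 5 arrays at 10 nM and 6 arrays at 100 nM, and 10 nM replicates 4 and 5, which the submitters had set aside as outliers, entered no comparison here. The 15 arrays used were therefore 6 control, 3 at 10 nM and 6 at 100 nM.

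Skeletal muscle forms from progenitors marked by Pax3 and Pax7. The myogenic regulatory factors Myf5, Myod1, myogenin (Myog) and Myf6 then commit these cells, fuse them into fibres together with Mef2 factors, and switch on the genes of the contractile apparatus. The receptor kinase MuSK gathers acetylcholine receptors under the nerve ending, and the fetal receptor is built from the alpha, beta, delta and gamma subunits. In the gubernaculum, muscle precursors at the rim of the bulb give rise to the cremaster muscle.

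Signals are log2 values that the authors normalized with GCRMA, and changes are taken here only within a probe set. The summed signals of cell type markers add unlogged values over the probe sets of different genes, so the brightest ones weigh most. Between 30.5% and 33.6% of all probe sets of an array lay at the floor of 2.11, where a fall cannot be seen. The labels give an RNA integrity number of 10 for 15 of the 17 arrays and none for 10 nM replicates 1 and 2. The yield of labelled cRNA was 48.6 to 102.69 µg for the 15 arrays used and 25.66 and 33.68 µg for the set-aside pair. The labels call the replicates biological, and the number of arrays limits the precision.

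Skeletal muscle transcripts were measured in every array. All 40 tested members were above 2.285 in every one of the 15 arrays, and the control means of their probe sets ran from 3.24 to 15.08. Heart muscle markers were at or near the floor in most arrays. Of 10 such genes, Myh6, Myl7, Nkx2-5, Nppa, Nppb and Tbx5 never exceeded 2.285. Gata4, Ryr2 and Mybpc3 exceeded it in some but fewer than 3 of the arrays used, so they were not tested. The single one tested, the cardiac troponin gene Tnni3, lay between 2.13 and 2.45 in the arrays used. Genes that heart and fetal skeletal muscle share, such as Tnnt2, Myl4 and Casq2, were measured at 11.34 to 13.69 in controls by the probe set representing each gene. The other Casq2 probe set ran from 10.17 to 10.85 in controls, and the other Tnnt2 probe set lay at the floor of 2.11 in every array.

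Insl3 changed few of the muscle genes. At 100 nM 2 of the 40 genes fell, Musk and Myod1, none rose, and 38 did not pass the test (limma, Benjamini-Hochberg adjusted p under 0.05 over all 18938 probe sets tested). That is 5.00% of the members, against 12.1% of all tested genes, of which 3.98% were lower and 8.15% higher. At 10 nM 3 of the 40 fell, Mef2c, Musk and Tpm3, none rose, and 37 did not pass, which is 7.50% of the members against 8.67% of all genes (3.13% lower and 5.54% higher). Mef2c counts here by the brighter of its probe sets, close in mean signal to the other (12.2576 and 12.105), which did not fall. The comparisons at both doses share the 6 control arrays. A share near the background says nothing particular about the muscle set. Since the tissue was measured in bulk, fewer muscle cells and less RNA per muscle cell cannot be told apart.

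The median log2 change of the members was -0.07 at 100 nM, with 13 genes positive and 27 negative. Over all 10665 tested genes the median was 0.02, and 4761 were negative. Among replicates 1, 2 and 6 of both groups 33 of the 40 members were negative, with a median of -0.11, and among replicates 3, 4 and 5 of both 20 of 40 were, with a median of 0.00 (3 arrays a group each, no test). This division of the replicates is named by no label and was chosen from an earlier look at these data. No share over all genes was taken within these sets, so the counts cannot be called particular to the muscle genes. At 10 nM the members' median was -0.02, with 19 positive and 21 negative, against 0.06 over all genes, of which 3904 were negative. The intervals show how large a missed change could be. For 31 of the 40 genes at 100 nM, and for 29 at 10 nM, the unadjusted 95% interval of the change lay wholly within 1.5-fold in either direction. Outside that range at 100 nM were Chrna1, Chrng, Hspb3, Musk, Myf6, Myh8, Neb, Ttn and Vgll2, for which a change above 1.5-fold is within the interval.

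**Figure D1:**
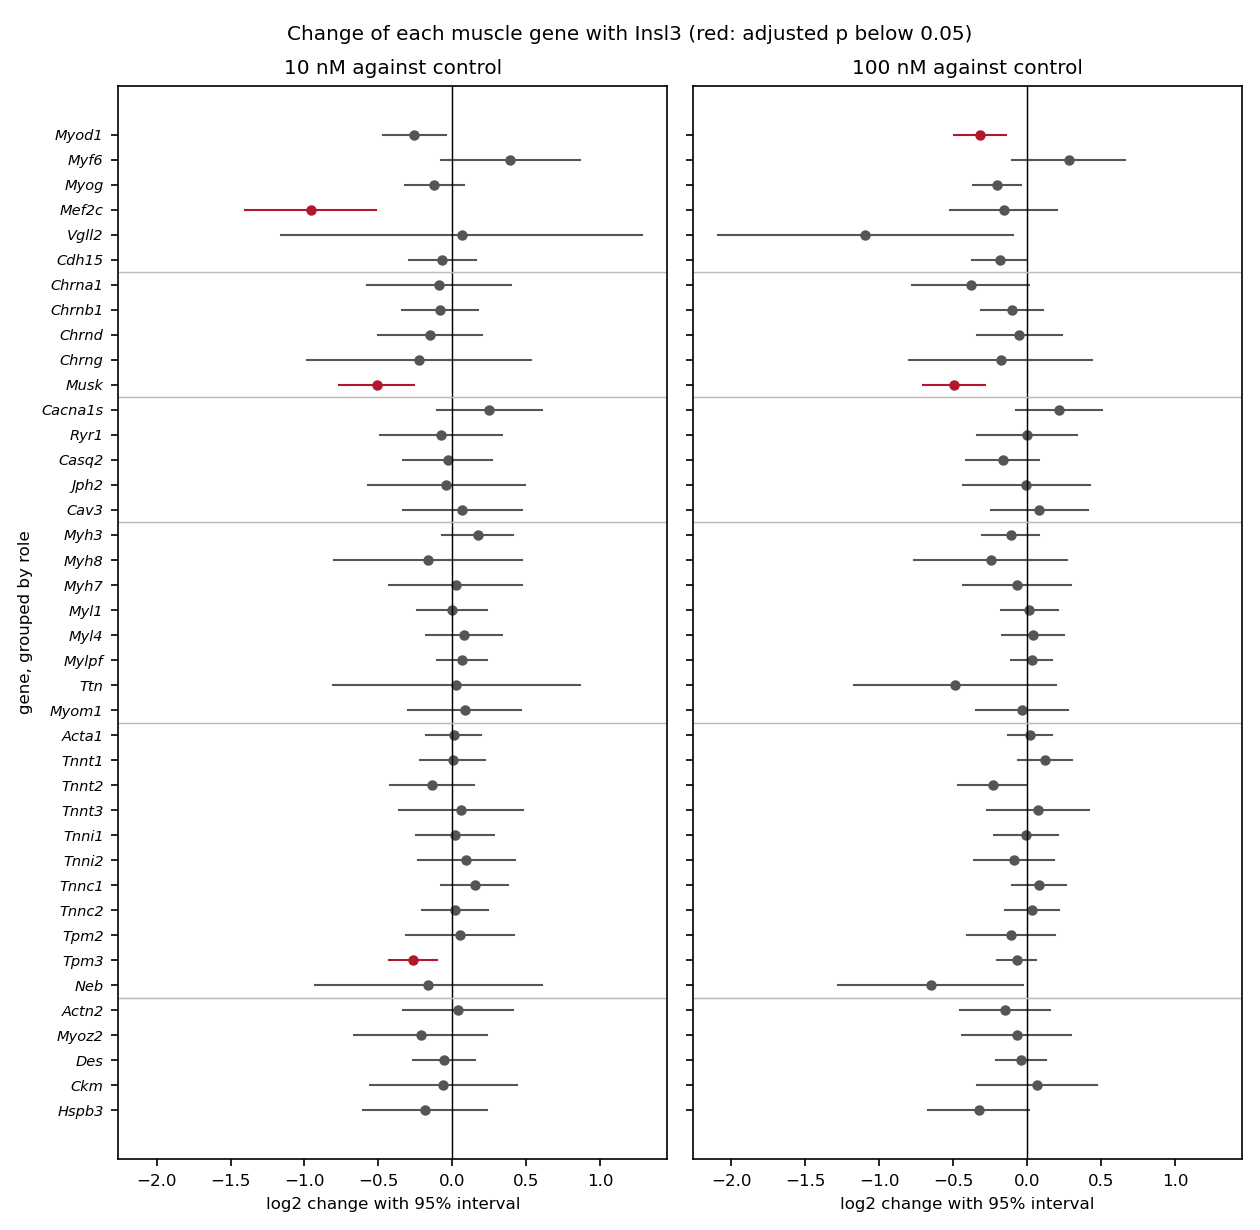
Log2 change of each of the 40 tested muscle genes with its unadjusted 95% interval, at 10 nM (left) and 100 nM (right) against control, on 1 shared axis and grouped by role. Red marks the 3 genes at 10 nM (Mef2c, Musk, Tpm3) and the 2 at 100 nM (Myod1, Musk) with an adjusted p under 0.05, all to the left of 0, while the filament genes cluster around 0 apart from the wide intervals of Ttn and Neb.

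Among progenitor and regulatory genes, 6 of the 12 members were tested. The probe set of Met, the receptor that guides migrating muscle precursors, and that of Mstn, the growth inhibitor myostatin, were not above the filter value in any array used. Of the 6 tested genes, 1 fell at 100 nM and 1 at 10 nM, and the median changes were -0.19 and -0.10.

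Myod1, the factor that commits cells to the muscle lineage, fell at 100 nM. Its 6 control arrays ran from 11.61 through a median of 11.69 to 11.82, and the 6 arrays at 100 nM from 11.18 through 11.34 to 11.73. At 10 nM the signals were 11.43, 11.42 and 11.49, all below the lowest control array. At 100 nM 5 of the 6 arrays lay below every control, and replicate 5, at 11.73, lay inside the control range. The fall was -0.32 ± 0.08 log2 units (SE; means 11.71 ± 0.08 and 11.39 ± 0.20, SD, n = 6 and 6), or 1.25-fold, with an adjusted p of 0.0238 (limma). At 10 nM the change was -0.26 ± 0.10, which did not pass (adjusted p = 0.128). The 100 nM call did not hold when replicate 2 or replicate 6 of that group was left out, with an adjusted p of 0.0539 at most, nor with all 17 arrays (0.125) or the replicate block (0.0506). The 10 nM change passed with all 17 arrays (0.0371) and without 100 nM replicate 5.

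Within the same division of the replicates, Myod1 differed by -0.50 between 100 nM and control among replicates 1, 2 and 6. Among replicates 3, 4 and 5 it differed by -0.14 (3 arrays a group each, no test). As the division was chosen from these data, these values are not independent support.

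Myog, which encodes myogenin, the factor of fusion and early fibre genes, gave 14.85 ± 0.16 in controls, 14.73 ± 0.08 at 10 nM and 14.65 ± 0.10 at 100 nM. The change of -0.20 ± 0.08 at 100 nM did not pass (adjusted p = 0.108), and control replicate 6, at 14.56, was the only control below 14.78. Without that array the change passed (adjusted p = 0.0143).

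Myf6, the regulatory factor of maturing fibres, was not called at either dose. Its 3 arrays at 10 nM, 9.62, 9.50 and 9.63, all lay above the highest control of 9.49, while the 6 arrays at 100 nM split into 9.87, 9.83 and 9.95 in replicates 1, 2 and 5 and 9.17, 9.06 and 8.97 in replicates 3, 4 and 6. The changes were 0.39 ± 0.22 at 10 nM (adjusted p = 0.307) and 0.28 ± 0.18 at 100 nM (adjusted p = 0.347).

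Mef2c, a partner of the myogenic factors, fell at 10 nM by 1 of its probe sets. Probe set 1373410_at gave 12.02 to 12.87 in the 6 controls, with a median of 12.54, and 11.46, 11.60 and 11.60 at 10 nM, so the groups did not overlap. At 100 nM it ran from 11.91 to 12.80, which covers most of the control range. The 10 nM change was -0.96 ± 0.21, or 1.94-fold lower (adjusted p = 0.00818), and the 100 nM change was -0.16 ± 0.17 (adjusted p = 0.597). The difference between the doses, 0.80 log2 units, did not pass (adjusted p = 0.0709), though it did with all 17 arrays (0.0452), with the replicate block (0.0243) and with the division of the replicates as a term (0.0191). That division was chosen from these data, so the last value is not independent support. The other probe set, 1372332_at, did not show the fall, with 12.13 ± 0.17 in controls, 12.19 ± 0.12 at 10 nM and 12.04 ± 0.26 at 100 nM (changes 0.07 and -0.09, adjusted p = 0.824 and 0.675).

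Vgll2, a cofactor of the TEAD factors in muscle, had the largest change of the 40 genes at 100 nM and did not pass. The 100 nM arrays gave 7.58 in replicate 1 and 5.59, 4.70, 4.64, 4.98 and 5.84 in replicates 2 to 6, against 5.97 to 7.37 in controls. The change was -1.09 ± 0.47 (adjusted p = 0.154). Without 100 nM replicate 1 it passed (adjusted p = 0.0141). The controls separated by the same numbers as above, with 7.37, 7.14 and 7.14 in replicates 1, 2 and 6 and 5.97, 6.24 and 6.03 in replicates 3, 4 and 5. The difference from control was -0.88 in the first set and -1.31 in the second, and a fit with the division as a term gave an adjusted p of 0.0436. As the division was chosen from these data and the controls split along it, that value is not independent support. At 10 nM the signals were 6.15, 7.45 and 6.52, a change of 0.06 ± 0.57.

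Cdh15, the cadherin of muscle precursor cells, had a control mean of 11.98 ± 0.08, with 11.91 ± 0.08 at the lower dose and 11.80 ± 0.21 at the higher, and neither change passed (adjusted p = 0.747 and 0.199).

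**Figure D2:**
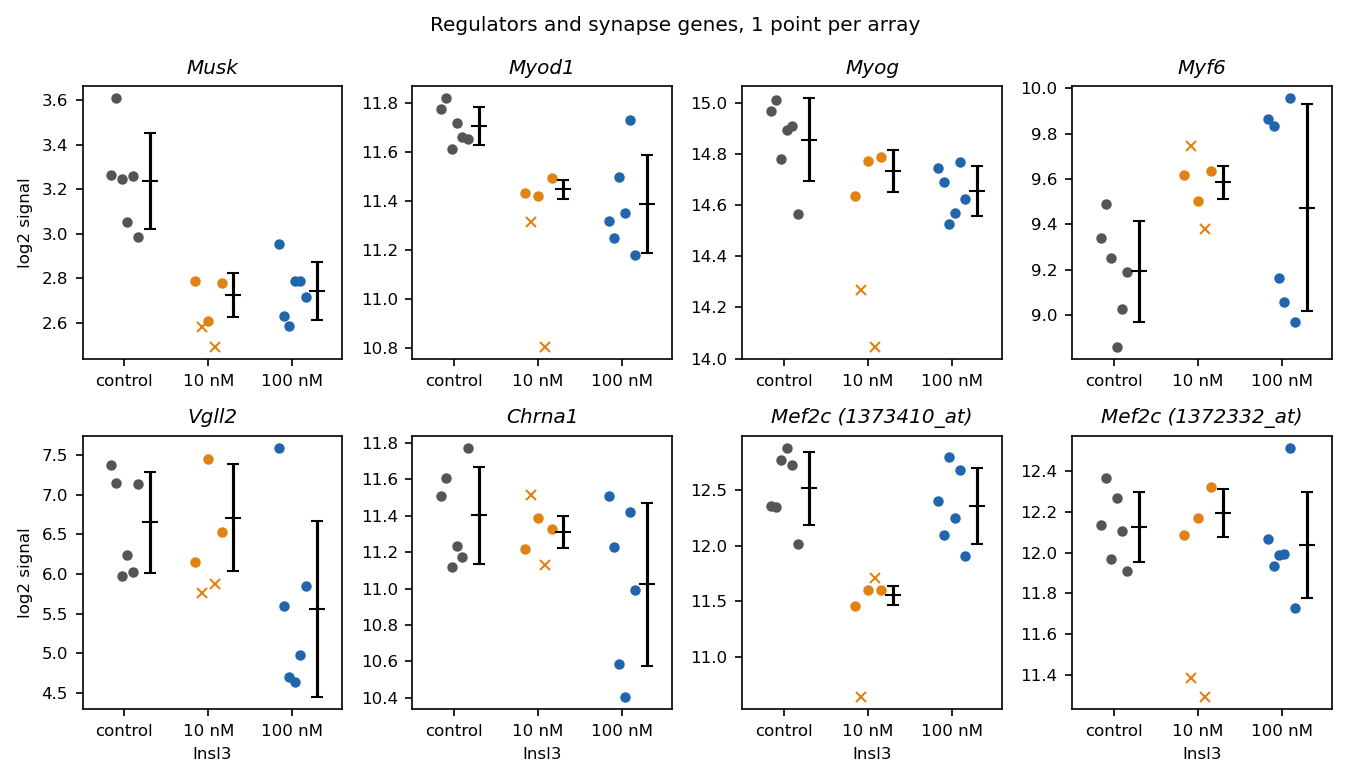
Log2 signal of regulators and synapse genes in each array, with control, 10 nM and 100 nM cultures along the horizontal axis; crosses are the 2 set-aside arrays, and the black bar gives the mean and SD of the arrays used. Every Musk array with Insl3 lies below every control, Myod1 lies lower in all but 1 of the 100 nM arrays, and Mef2c is low at 10 nM in probe set 1373410_at only.

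The synapse group holds the kinase gene Musk and the genes of the fetal acetylcholine receptor, Chrna1, Chrnb1, Chrnd and Chrng. All 5 were tested, and 1, Musk, fell at each dose. The stretch before the start site is shown for the group because these genes are textbook targets of the myogenic factors. These factors bind E-boxes (CANNTG, read on both strands by its symmetry). All 5 genes had negative changes at both doses, and only Musk passed. The sequences are from RefSeq on GRCr8, 250 bases up to the first listed start of the gene, 5′ to 3′ on the gene's strand, with each CANNTG in capitals. They lie at chr5:77853486-77853735 (+) for Musk, chr3:78877354-78877603 (-) for Chrna1, chr10:55015108-55015357 (-) for Chrnb1, chr9:95310066-95310315 (+) for Chrnd and chr9:95325734-95325983 (+) for Chrng.
Musk: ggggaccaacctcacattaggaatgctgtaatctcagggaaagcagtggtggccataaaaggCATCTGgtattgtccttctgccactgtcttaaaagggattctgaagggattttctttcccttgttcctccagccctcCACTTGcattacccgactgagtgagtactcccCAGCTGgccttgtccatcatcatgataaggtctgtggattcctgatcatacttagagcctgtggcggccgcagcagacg
Chrna1: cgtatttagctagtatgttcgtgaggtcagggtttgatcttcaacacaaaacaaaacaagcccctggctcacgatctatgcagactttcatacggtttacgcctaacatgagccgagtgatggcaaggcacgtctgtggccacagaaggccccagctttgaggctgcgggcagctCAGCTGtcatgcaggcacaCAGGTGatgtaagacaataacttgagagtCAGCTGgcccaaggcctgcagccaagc
Chrnb1: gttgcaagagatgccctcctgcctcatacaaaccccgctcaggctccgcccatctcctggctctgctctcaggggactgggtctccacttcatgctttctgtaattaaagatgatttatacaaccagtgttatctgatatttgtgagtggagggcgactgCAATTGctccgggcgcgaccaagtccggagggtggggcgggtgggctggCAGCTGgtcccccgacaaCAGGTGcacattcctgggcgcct
Chrnd: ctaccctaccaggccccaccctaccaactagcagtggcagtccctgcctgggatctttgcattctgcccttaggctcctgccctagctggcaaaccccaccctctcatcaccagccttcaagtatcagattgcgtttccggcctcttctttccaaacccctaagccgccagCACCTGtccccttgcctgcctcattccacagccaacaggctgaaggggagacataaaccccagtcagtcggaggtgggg
Chrng: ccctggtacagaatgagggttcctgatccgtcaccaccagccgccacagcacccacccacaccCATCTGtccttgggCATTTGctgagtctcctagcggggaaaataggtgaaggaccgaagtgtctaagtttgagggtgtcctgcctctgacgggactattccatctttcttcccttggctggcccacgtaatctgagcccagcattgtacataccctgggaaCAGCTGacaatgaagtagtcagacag

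Musk, Chrna1, Chrnb1 and Chrng each hold 3 such matches in this window, and Chrnd holds 1. Of all 27457 promoters of the same length, 65.2% hold at least 1 and 11.0% at least 3. The narrower CAGCTG, contained in the first motif, stands in 4 of the 5 (all but Chrnd) and in 11.9% of all promoters. Over the 41 members with an entry in the promoter table, 80.5% held a CANNTG, 26.8% held 3 or more and 36.6% held CAGCTG. A match describes the letters of the window and is not a binding site.

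Musk fell at both doses. The controls were 3.26, 3.61, 3.25, 3.05, 3.26 and 2.99 in replicates 1 to 6, the 10 nM arrays 2.79, 2.61 and 2.78, and the 100 nM arrays 2.96, 2.63, 2.59, 2.79, 2.79 and 2.71. Every Insl3 array lay below every control, the closest pair being control replicate 6 and 100 nM replicate 1. The change was -0.51 ± 0.12 at 10 nM (adjusted p = 0.0121) and -0.49 ± 0.10 at 100 nM (adjusted p = 0.00554), or 1.43-fold and 1.41-fold lower, and the doses differed by 0.02 (adjusted p = 0.985). Within the replicate sets, which were chosen from these data, the 100 nM difference was -0.52 (1, 2 and 6) and -0.47 (3, 4 and 5), with no test. The signal was close to the floor in every array, so the size of the fall is uncertain. At 100 nM the call held in all 15 leave-one-out fits, and at 10 nM it was lost without 10 nM replicate 2 (adjusted p = 0.0678).

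None of the receptor subunit genes passed at either dose. Chrna1, the subunit that carries the main part of the transmitter site, ran from 11.12 to 11.77 in controls and from 10.41 to 11.51 at 100 nM, where replicates 3 and 4, at 10.59 and 10.41, were lowest. Its change was -0.38 ± 0.18 (adjusted p = 0.211). Chrng, the subunit that marks the fetal receptor, ran from 8.44 to 9.68 in controls and from 8.03 to 9.47 at 100 nM, with changes of -0.23 ± 0.35 at 10 nM and -0.18 ± 0.29 at 100 nM. Chrnb1 changed by -0.08 and -0.10 and Chrnd by -0.15 and -0.05 at 10 and 100 nM, and the groups overlapped in each case.

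Of the 40 members, Musk alone had 100 nM arrays that lay wholly below the controls, and none lay wholly above, against 1.36% and 4.51% of all genes. At 10 nM Musk, Myod1 and Mef2c lay wholly below and Myf6 and Tnnc1 wholly above, which is 3 and 2 of 40 against 4.67% and 10.2% of all genes.

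The genes of excitation-contraction coupling and the fibre membrane were not called at either dose. The 5 tested were Cacna1s, the voltage sensor, Ryr1, the calcium release channel, Casq2, a calcium store protein, Jph2, which joins the store to the membrane, and Cav3, the muscle caveolin. Their median change was 0.00 at 100 nM and -0.03 at 10 nM, and at 100 nM all 5 intervals lay within 1.5-fold. Ryr1 gave 8.41 ± 0.22 in controls, 8.33 ± 0.19 at 10 nM and 8.41 ± 0.36 at 100 nM. Cacna1s gave 6.43 ± 0.20, 6.68 ± 0.19 and 6.64 ± 0.30, with changes of 0.25 and 0.22 that did not pass (adjusted p = 0.398 and 0.331). Casq2, by its standing probe set, ran from 11.34 to 11.65 in controls and from 11.03 to 11.73 at 100 nM, a change of -0.16 ± 0.11 (adjusted p = 0.396). Jph2 and Cav3 changed by between -0.04 and 0.08 over both doses.

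Nor did the thick filament genes pass at either dose, in 8 of 8 cases. Mylpf, the fast regulatory light chain, had a control mean of 15.08 ± 0.06, with 15.14 ± 0.08 at the lower dose and 15.11 ± 0.14 at the higher. Its change at 100 nM was 0.03 ± 0.06, with an interval from -0.11 to 0.17. Myh3, the embryonic myosin heavy chain, ran from 14.51 to 14.97 in controls and from 14.44 to 14.96 at 100 nM, and the 10 nM arrays were 14.93, 15.01 and 14.99. The perinatal heavy chain gene Myh8 ran from 7.92 to 8.66 in controls and from 7.23 to 8.69 at 100 nM. It changed by -0.24 ± 0.24 there and the slow heavy chain gene Myh7 by -0.07 ± 0.17. The light chain genes Myl1 and Myl4 and the M-band gene Myom1 changed by no more than 0.08 in either direction at either dose.

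In the thin filament group 11 of the 12 members were tested, and only Tpm3 was called, at 10 nM. Acta1, skeletal alpha-actin, gave 14.80 ± 0.08 in controls, 14.81 ± 0.03 at 10 nM and 14.82 ± 0.16 at 100 nM, a change at 100 nM of 0.02 ± 0.07. The troponin genes of slow and fast fibres were close to control too. Tnni1 and Tnnc1, of slow fibres, changed by -0.01 and 0.08 at 100 nM, and Tnni2 and Tnnc2, of fast fibres, by -0.09 and 0.04. Tnnt1, Tnnt3 and Tpm2, the troponin T genes of slow and fast fibres and a tropomyosin gene, changed by 0.12, 0.08 and -0.11. Tnnt2, the troponin T of heart and immature skeletal muscle, went from 12.60 ± 0.14 to 12.37 ± 0.25 at 100 nM (adjusted p = 0.190). Over the 19 thick and thin filament genes the median change was -0.03 at 100 nM and 0.02 at 10 nM, and 16 of the 19 intervals lay within 1.5-fold at each dose, the exceptions being Myh8, Neb and Ttn.

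Ttn and Neb, which encode the giant proteins titin and nebulin, varied more than the other filament genes in the control and 100 nM groups, and were lowest in the same arrays there. At 10 nM this did not hold, with SDs of 0.251 (Ttn) and 0.238 (Neb) against 0.488 for Myh8. Ttn was lowest at 10.40 in control replicate 3 and at 9.84 in 100 nM replicate 1, and Neb was lowest in the same arrays, at 9.77 and 9.27. In the other control arrays Ttn lay between 11.30 and 11.92 and Neb between 10.56 and 11.39. Their changes at 100 nM, -0.49 ± 0.32 and -0.65 ± 0.29, did not pass (adjusted p = 0.362 and 0.175). Among replicates 1, 2 and 6 the 100 nM means differed from control by -1.32 (Ttn) and -1.33 (Neb) log2 units. Among replicates 3, 4 and 5 the differences were 0.35 and 0.03. This contrast between the sets was not tested, and the division was chosen from these data. The lowest arrays, 100 nM replicate 1 and control replicate 3, fall in different sets.

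Tpm3, a tropomyosin gene used by slow fibres and by many other cells, had 12 tested probe sets that did not move alike. The standing one, 1370339_at, gave 13.42 to 13.73 in controls and 13.39, 13.45 and 13.20 at 10 nM, so the groups overlapped. It fell by 0.27 log2 units (SE 0.08, adjusted p = 0.0376), a call that 6 of the 15 leave-one-out fits did not give (highest adjusted p 0.221). Without control replicate 1, 3, 4 or 5, or without 10 nM replicate 1 or 3, it did not pass, nor with the replicate block (0.168). Of the other 11 probe sets, 1370340_x_at (-0.53, adjusted p = 0.0162) and 1371239_s_at (-0.48, adjusted p = 0.0397) fell at 10 nM, and 1383986_at rose (0.36, adjusted p = 0.0222). The call of 1371239_s_at was lost in 8 of the 15 leave-one-out fits (adjusted p up to 0.147), with the replicate block (0.0573) and with no filter (0.0790). The other pair lost theirs in 2 fits each, 1370340_x_at without 10 nM replicate 1 or 3 and 1383986_at without 10 nM replicate 1 or 2, and 1383986_at also with all 17 arrays (0.0624). At 100 nM only 1387617_at fell (-0.36, adjusted p = 0.0468), and 13 of the 15 leave-one-out fits and 5 of the 7 other alternatives did not give that call. Some of these probe sets carry the suffix for sequences shared with other transcripts, so which tropomyosin transcript each reads is uncertain.

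Over all 58 member probe sets, 3 fell and none rose at 100 nM, and 5 fell and 1 rose at 10 nM, which is 5.17% and 10.3% against 10.9% and 10.6% of all probe sets tested. Casq2, Tnni1, Tpm2 and Myh7 had 2 tested probe sets each and Neb had 3, and none of these was called. The second Casq2 probe set, 1387401_at, changed by -0.58 at 10 nM and -0.45 at 100 nM (adjusted p = 0.138 and 0.144), while the standing one changed by -0.03 and -0.16.

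**Figure D3:**
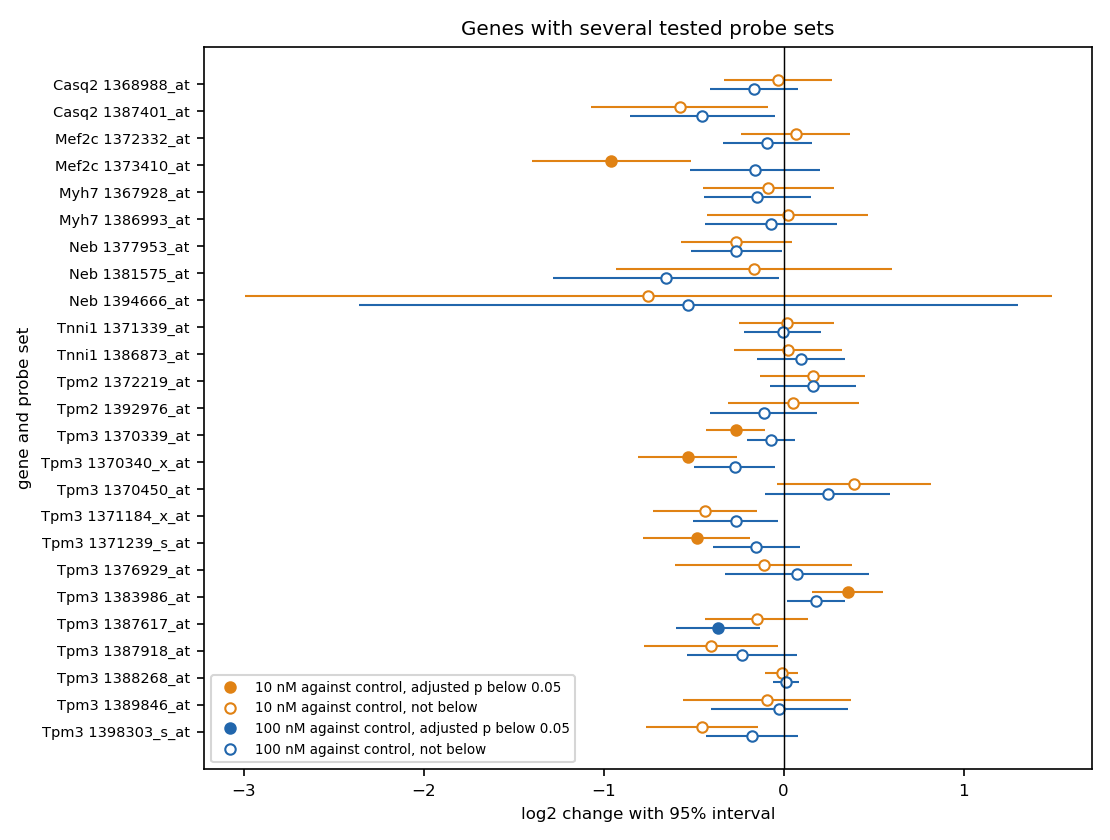
Log2 change with its unadjusted 95% interval for every tested probe set of the 7 muscle genes that have several, at 10 nM (orange) and 100 nM (blue) against control; filled points have an adjusted p under 0.05. The 12 Tpm3 probe sets lie on both sides of 0, and the Mef2c probe sets differ at 10 nM, with -0.96 against 0.07.

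The group of Z disc, intermediate filament and fibre enzyme genes gave no call at either dose. It holds Actn2, the alpha-actinin of the Z disc, Myoz2, which binds it, Des, the muscle intermediate filament desmin, Ckm, muscle creatine kinase, and Hspb3, a small heat shock protein gene. Des had a control mean of 13.02 ± 0.12, with 12.96 ± 0.05 at the lower dose and 12.98 ± 0.16 at the higher. Hspb3 ran from 7.84 to 8.39 in controls and from 7.52 to 8.31 at 100 nM, where it changed by -0.33 ± 0.16 (adjusted p = 0.210). Actn2 ran from 11.71 to 12.43 in controls and from 11.42 to 12.11 at 100 nM, a change of -0.15 ± 0.14. Myoz2 gave 10.82 ± 0.26 in controls, 10.60 ± 0.09 at 10 nM and 10.75 ± 0.41 at 100 nM, and its 10 nM change of -0.22 ± 0.21 did not pass (adjusted p = 0.585). Ckm changed by 0.07 ± 0.19 at 100 nM.

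None of the 40 members passed between 100 nM and 10 nM, where 0.778% of all genes did. With no adjustment, 3 of the 40 had a p under 0.05 (limma), against 1071 of all 10665 genes. The members' median was -0.03, the same as over all genes. For 31 of the 40 the 95% interval of the difference between doses lay within 1.5-fold, which does not show that the doses act alike. Mef2c and Tpm3 were the members whose 100 nM arrays lay wholly above the 10 nM arrays, against 2.73% of all genes, and none lay wholly below, against 3.99%.

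At 100 nM the muscle genes had a wider spread between replicates than all genes together. Over the 40 members the median SD of the control, 10 nM and 100 nM arrays was 0.163, 0.0949 and 0.298, against 0.188, 0.0991 and 0.167 over all genes. Arrays 5 and 6 of the 100 nM group lay at opposite ends. Replicate 5 was the highest of its group in 26 of the 40 members and replicate 6 the lowest in 27, where all genes gave 24.3% and 12.6%. Among the 19 filament genes each held that place in 16. The median deviation from the group mean was 0.33 in replicate 5 and -0.32 in replicate 6, and 0.03 and 0.01 over all genes.

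Different muscle genes did not follow the same arrays in every case. In 100 nM replicate 1 the synapse genes were high while Ttn and Neb were at their lowest. Replicate 4 was low in the synapse group and near the group mean for thick filament genes. In the other groups the median deviation of the 40 members stayed between -0.05 and 0.09, although control replicate 2 was the highest control in 19 of the 40 members (47.5%, against 18.3% of all genes) and 10 nM replicate 3 the highest kept 10 nM array in 24 (60.0%, against 24.8%).

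**Figure D4:**
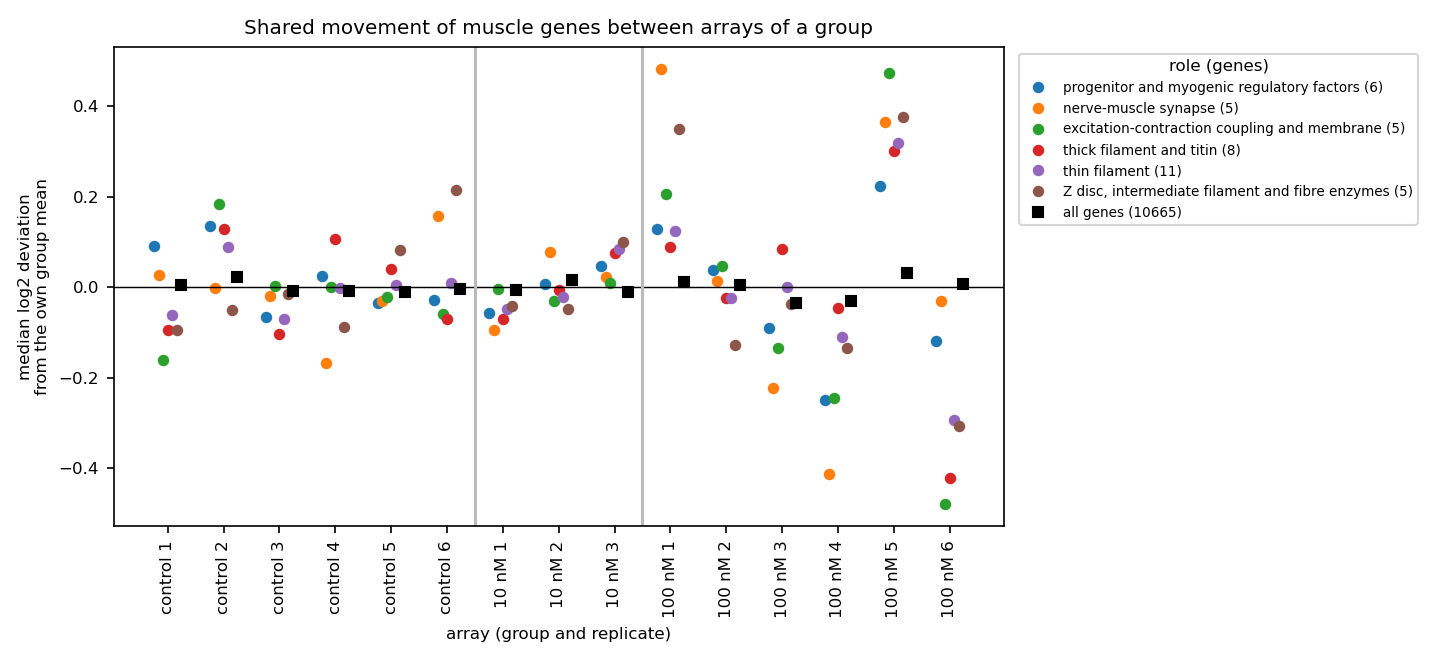
Median log2 deviation of each array from its own group mean, for the 6 roles of muscle genes (coloured, with the number of genes) and all 10665 tested genes (black squares). The muscle genes of 100 nM replicates 5 and 6 sit above and below 0 while all genes stay close to 0.

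**Figure D5:**
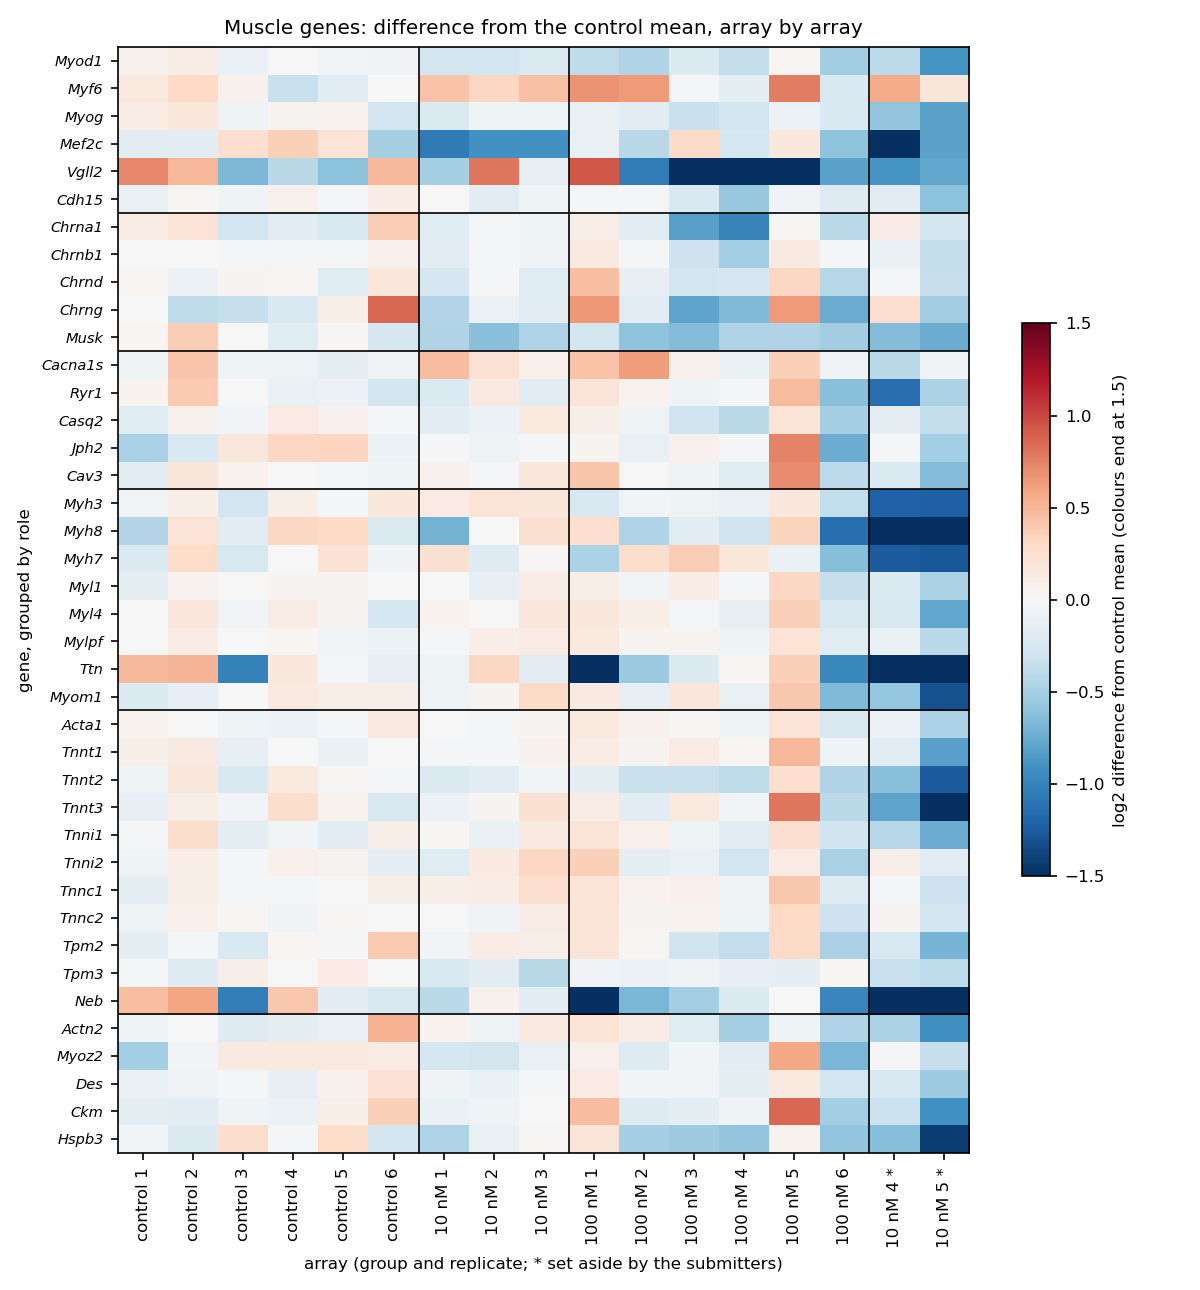
Log2 difference of each muscle gene (rows, grouped by role) from its control mean in every array (columns; an asterisk marks the set-aside arrays); the colours end at 1.5 in either direction. 100 nM replicate 6 and both set-aside arrays are mostly blue, 100 nM replicate 5 is mostly red, and Ttn and Neb are blue together in control replicate 3 and 100 nM replicate 1.

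The set-aside 10 nM arrays were low in most muscle genes. Replicate 4 lay below all 3 kept 10 nM arrays in 29 of the 40 members and replicate 5 in 37, where all genes gave 42.0% and 52.1%. Below all 15 kept arrays were 15 and 25 members (37.5% and 62.5%), against 21.4% and 28.1% of all genes, and no member lay above all of them, against 22.1% and 11.3%. The 5 synapse genes differed in replicate 4, where their median deviation was 0.13 and 1 of the 5 lay below all kept 10 nM arrays, while in replicate 5 all 5 did. The median deviation from the kept 10 nM mean was -0.24 and -0.51 for the members, and -0.03 and -0.14 over all genes. Myh3, for instance, was 13.60 and 13.58 in these arrays. The fibroblast markers were low in the same arrays, with summed signals (unlogged) of 118600 and 107900 against 170600 to 194200 in the 15 arrays used. The neuron markers were low there too, at 2218 and 2353 against 3088 to 5704, while the erythroid sums of 113500 and 133700 were not. Those sums rest mostly on Hbb, at 16.61 and 16.71. In replicate 5 Ahsp, Alas2, Epb42, Gata1, Klf1, Nfe2 and Slc4a1 lay above every control (Klf1 9.25 against at most 7.93), while Epor and Hemgn did not. In replicate 4 only Alas2 and Gata1 did. The part of these cell types in the muscle values was not tested.

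Markers of some other cell types changed beside the muscle genes, and those of others did not. Over all tested genes 3.98% fell and 8.15% rose at 100 nM, and 3.13% fell and 5.54% rose at 10 nM. Of 10 erythroid genes tested 7 fell at 100 nM and none at 10 nM, and their summed signal ran from 91620 to 124700 (controls), 87320 to 111500 (10 nM) and 42820 to 104800 (100 nM). Of 12 leukocyte genes 7 fell at 100 nM and none at 10 nM (11140 to 21920, 10940 to 17110 and 7305 to 12350). Of 6 endothelial genes Cldn5 and Kdr rose at each dose (sums of 1693 to 2465, 3141 to 5561 and 5586 to 9250), Cldn5 by 1.60 and 2.83 log2 units and Kdr by 0.78 and 0.94. Emcn (-0.63 and -0.42) and Esam (-0.16 and -0.37) did not pass, and the list's median change was 0.14 at 10 nM and 0.04 at 100 nM. Of 8 fibroblast genes 2 rose and 2 fell at 100 nM, and 1 rose and 1 fell at 10 nM, with overlapping sums of 173600 to 194200, 172700 to 178500 and 170600 to 187800. Of 7 smooth muscle genes none passed at 100 nM, and 1 rose and 1 fell at 10 nM. At 100 nM 2 had an unadjusted p under 0.05 (limma), against 2945 of all 10665 genes. The smooth muscle sums were 6246 to 7723, 5824 to 6903 and 5832 to 6958. Of 6 neuron genes 1 rose at 100 nM, of 2 Schwann cell genes 1 fell there, and neither list gave a call at 10 nM. The Schwann cell gene that fell, Mbp, was near the floor, with means of 3.23 in controls and 2.96 at 100 nM. The other, S100b, went from 5.28 to 5.69 and was not called. None of 6 mesothelium genes passed at either dose or had an unadjusted p under 0.05 in these comparisons.

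The highest and lowest muscle arrays of the 100 nM group, replicates 5 and 6, were also apart in some of these lists. Their neuron sums were 5704 and 3676, the highest and the lowest of the group, and their leukocyte sums were 12350 and 8085. Closer to each other were the erythroid sums, 85900 and 84330 and set mostly by Hbb, and the fibroblast sums, 185400 and 176600. The part of the other cell types in the changes of Musk, Myod1 and Mef2c was not tested.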

How the data were processed

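The samples were 17 cultures of fetal rat gubernaculum, each on 1 Affymetrix array. The deposited log2 values per probe set were made by the authors with GCRMA, per the submitters' processing notes, which correct background by probe sequence, normalize the arrays and summarise probes. The base of the logarithm and whether normalization included the set-aside arrays are not given in the sources used here; base 2 is what GCRMA writes, and the values run from 2.11 to 16.9. Array medians lay between 4.29 and 4.47.

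Of 31099 probe sets, 57 were manufacturer controls and 20832 carried 1 gene in the platform table; 20764 of these matched the GRCr8 gene table, through which Mylpf was found under a newer symbol. The 18938 probe sets tested exceeded 2.285, the 40th percentile over the 15 arrays used, in 3 or more arrays. The 3 groups were fitted together with limma 3.58.1 in R 4.3.3 (lmFit, eBayes), 2-sided, with Benjamini-Hochberg adjustment per comparison over all tested probe sets. "Rose" and "fell" mean an adjusted p under 0.05. Errors of changes are moderated SEs and those of means SDs. The fit was also run on simulated independent normal values. These had no floor and no shared movement of arrays, so that run does not cover these features of the data. Members named by rule were those called in any comparison by any probe set, the myogenic regulatory factors, and in each role the 2 with the largest change at each dose; other members named were chosen as examples of their role after their values were seen. Of the other muscle genes, those called in any comparison were named. The lists of other muscle genes and of cell type markers hold 80 and 84 genes. The members and lists were chosen with earlier results of these data known. Alternatives were all 17 arrays, filters, quantile normalization, a replicate block, a trended robust variance, a division of the replicates, and leaving out each array.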

Additional observations from a re-analysis of the deposited data

Results flagged for a closer look

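Of 80 groups of 6 values (40 genes, control and 100 nM), 5 held an array far from the others of its group by Dixon's criterion, and chance alone marks about 1 in 20. Actn2 was 12.43 in control replicate 6, against 11.71 to 11.91 in the other controls. Cacna1s was 6.84 in control replicate 2, against 6.29 to 6.38. Control replicate 1 was low for Myl1, at 14.38 against 14.54 to 14.58, and for Myoz2, at 10.31 against 10.78 to 10.97. Tnnt1, the slow troponin T gene, was 12.39 in 100 nM replicate 5, against 11.83 to 12.01, in the array that was highest of its group for most muscle genes. None of these 5 genes was called in any comparison.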

How the results depend on the processing

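The count of muscle genes called at 100 nM, 2 in the reported fit, was 1 (Musk) with all 17 arrays and 1 (Musk) with the replicate block, where Myod1 had an adjusted p of 0.0506. It ranged from 1 to 3 when 1 array was left out, with 1 without 100 nM replicate 2 or 6 and 3 without control replicate 6, which added Myog, without 100 nM replicate 1, which added Vgll2, or without 100 nM replicate 5, which added Tnnt2 (adjusted p = 0.0221). At 10 nM the count of 3 ranged from 2 to 4 without 1 array and was 2 with the replicate block, which lost Tpm3 (adjusted p = 0.168). Between the doses the count of 0 became 1, Mef2c, with all 17 arrays (adjusted p = 0.0452), with the replicate block (0.0243) and with the division of the replicates as a covariate (0.0191). Fits with this division are not independent support, since it was chosen from these data. The count of other muscle genes called at 10 nM ranged from 2 to 6 without 1 array. The 123 remaining recomputed counts stayed within 1.5 times the reported ones, and no named change turned its direction past the threshold. Of the recomputed single changes 2329 kept their side of the threshold, 95 lost it and 18 gained it. The causes were not tested. The labels do not say what a shared replicate number marks. Deviations of same-numbered arrays correlated at -0.07 to 0.20, and at 0.01 to 0.20 between control and 100 nM. Differently numbered arrays correlated at -0.37 to 0.35. These values do not settle whether the numbers pair the samples. Signals near the floor, as for Musk, limit what can be seen.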

Other observations

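A wider list of muscle genes outside the set gave a few calls of its own. Of 57 such genes tested, 2 rose and 3 fell at 100 nM and 1 rose and 3 fell at 10 nM. That is 8.77% and 7.02% against 12.1% and 8.67% of all genes. None passed between the doses, where 3 had an unadjusted p under 0.05 (limma), against 1071 of all 10665 genes. Both risers handle calcium in the endoplasmic or sarcoplasmic reticulum of many cell types. Atp2a2, the SERCA2 calcium pump gene, rose from 12.20 ± 0.08 to 12.62 ± 0.12 at 10 nM and 12.73 ± 0.15 at 100 nM (changes 0.42 and 0.53, adjusted p = 0.00756 and 0.000466), with all treated arrays above all controls. Its other 3 probe sets were not called, and the 10 nM call was lost with all 17 arrays (adjusted p = 0.195) and with the replicate block (0.0512). Asph, whose locus also makes the reticulum protein junctin, rose by 0.74 ± 0.13 at 100 nM (adjusted p = 0.00316), and a second probe set, 1393345_at, rose at both doses (0.71 and 0.58). None of the 22 other sarcomere genes tested passed at either dose by the probe set standing for the gene. An unadjusted p under 0.05 (limma) was found for 2 at 100 nM and 1 at 10 nM, against 2945 and 2312 of all 10665 genes.

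Among the falls, Rbm24, an RNA-binding splicing regulator of muscle, went from 12.81 ± 0.09 in controls to 12.50 ± 0.05 at 10 nM and 12.44 ± 0.13 at 100 nM. Its changes were -0.31 (adjusted p = 0.0222, lost without any 1 of the 10 nM arrays, up to 0.0942, and with the replicate block, 0.0538) and -0.37 (adjusted p = 0.00276). Dmd, the dystrophin gene, had a low signal of 3.29 ± 0.28 in controls and fell by 0.55 at 10 nM (adjusted p = 0.0121, but 0.0583 without 10 nM replicate 1) and by 0.47 at 100 nM (adjusted p = 0.0108). Jph1, a junctophilin gene, fell by 0.50 at 100 nM (adjusted p = 0.0380), a call that 9 of the 15 leave-one-out fits did not give, nor the fits with all 17 arrays (0.0591), no filter (0.0808) or the replicate block (0.0960).

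Mef2a, a relative of Mef2c, fell at 10 nM by 3 of its 4 probe sets. The standing one, 1378360_at, fell by 0.50 (adjusted p = 0.0233, but up to 0.120 without 10 nM replicate 1 or 3), 1392472_at by 0.77 and 1393290_at by 0.86 (adjusted p = 0.00222 and 0.000919), while 1383093_at changed by -0.04. At 100 nM 1393290_at (-0.39, adjusted p = 0.0283) and 1383093_at (-0.19, 0.0342) fell, and 1378360_at (-0.27, 0.130) and 1392472_at (-0.29, 0.0991) did not pass. Of the 15 leave-one-out fits 5 did not give the first of these calls and 7 the second, up to 0.0625 and 0.0687. With all 17 arrays both were lost (0.0959 and 0.183), as was the first with no filter (0.0561) and the second with the replicate block (0.0637). Ldb3, a Z disc gene, fell at 10 nM by probe sets 1375303_at (-1.21, adjusted p = 0.00197) and 1375982_at (-0.81, adjusted p = 0.00664), while its standing probe set, at -0.08, was not called. At 100 nM 1375303_at and 1375982_at changed by -0.58 (limma, adjusted p = 0.0398) and -0.29 (0.203), and the standing Ldb3 probe set by -0.09 (0.707). The call of 1375303_at at 100 nM was lost in 10 of the 15 leave-one-out fits (up to 0.0883). It was also lost with all 17 arrays (0.0673), with no filter (0.0868) and with the replicate block (0.0722). Ldb3, Asph and Rbm24 each have a further probe set that is not described here. None of the Mef2a and Ldb3 probe sets passed between 100 nM and 10 nM. With the replicate block, with the division of the replicates as a covariate and without 100 nM replicate 5, Mef2a 1392472_at (0.0314, 0.0280 and 0.0221) and 1393290_at (0.0272, 0.0381 and 0.0331) did. The fit with the division is not independent support, since the division was chosen from these data.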
